A study of Mus musculus with 24 samples.

Results

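The transcripts described here belong to 45 genes of mitosis and cytokinesis, followed across mouse natural killer (NK) cells that lacked or kept the adaptor FcRγ. The members were given by name, from the kinases that start mitosis to the proteins that cut the daughter cells apart, and all 45 were found among the 38215 genes of the deposited table. The rule that picks them uses gene symbols and no measured value, but the list was chosen with earlier results of these data known. They were ordered here by role: 10 genes of mitotic entry, 4 of the spindle checkpoint, 3 of the anaphase switch, 4 of the chromosomal passenger complex, 7 of centromere and kinetochore, 9 of the spindle, 6 of cytokinesis and 2 of the mitotic chromosome.

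A cell enters mitosis when the kinase CDK1, bound to cyclin A or cyclin B, becomes active. The spindle checkpoint then holds the anaphase-promoting complex, a ubiquitin ligase, until every kinetochore is attached to microtubules, after which separase cuts the cohesin that joins sister chromatids and the contractile ring divides the cytoplasm. Most of these genes are transcribed in G2 and M phase and are kept low in resting cells, and resting NK cells of the spleen divide when interleukin-15 (IL-15) signals through the IL-2/15 receptor and STAT5.

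Poly(A) RNA was sequenced in bulk from 24 NK cell libraries in 6 groups of 4. KO and WT each had spleen cells labelled IL-15 treated, cells from naive spleens, and cells from tumour-bearing lungs labelled naive for treatment. Below, IL-15-treated spleen is short for the spleen cells labelled IL-15 treated, whether the cells or the mice were treated. KO stands for loss of FcRγ, the ITAM adaptor encoded by Fcer1g, and WT for the intact gene. The design text calls the 4 libraries of a group biological replicates. The labels do not say how, at what dose or for how long IL-15 was given, which tumour the lungs bore, the age and strain of the mice, the KO allele, or whether a library stands for 1 animal. The p-values therefore measure the spread between these libraries, which may be technical.

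Library totals ran from 9.68 to 32.1 M expected counts (M stands for 1000000). The shallowest libraries were replicate 1 of naive KO spleen, at 9.68 M expected counts, and replicate 1 of WT lung, at 9.78 M expected counts. These 2 stood apart from the other 22, which held at least 21.2 M expected counts. Fcer1g stood between 1.25 and 16.2 CPM (counts in a library scaled to 1000000) in the 12 KO libraries and between 253 and 795 CPM in the 12 WT libraries. All 11 NK cell markers averaged at least 1 CPM in every group, and the median of their sum was 6510 and 7480 CPM in IL-15-treated KO and WT spleen, 12700 and 14300 CPM in KO and WT lung, and 17100 and 20700 CPM in naive KO and WT spleen. The part of this shift in the results was not tested. Levels below are CPM on totals scaled by the trimmed mean of M values. Differences are log2 changes ± standard error (SE) from edgeR's quasi-likelihood test with Benjamini-Hochberg adjustment over all genes, and a gene rose or fell where the adjusted p was below 0.05. In bulk RNA, fewer cells in cycle and less RNA per cell cannot be told apart.

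Promoter sequence was at hand for 37 of the 45 members, as RefSeq windows on GRCm38.p6 from 250 bases before to 50 after the start of the gene. Aurkb, Ccna2, Cdc25c, Foxm1, Incenp, Kif20a, Spc24 and Tpx2 had no entry. Many G2 and M phase genes carry a short element near their start, the cell cycle genes homology region (CHR), which the MuvB complexes bind, and CCAAT boxes bound by the factor NF-Y. TTTGAA, the usual CHR core, was found on either strand in 29 of the 37 windows (78.4%), against 18.1% of 27025 windows of all genes. The variant TTCGAA was in 8.11% of the member windows and 1.57% of all. CCAAT was in 75.7% of the member windows and 37.9% of all, and at least 2 copies were in 51.4% and 12.2%. TTTGAA or TTCGAA together with CCAAT was in 70.3% of the member windows and 7.7% of all. In 27 members TTTGAA or TTCGAA began between 30 bases before and 45 bases after the start. The windows of Birc5, Mad2l1, Melk, Nuf2 and Nusap1 held no CHR core of either form and no CCAAT box. E2F motifs were searched as TTGGCGC, with its relatives TTCCCGC, the variant TTCGCGC and the variant TTGCCGC, and any of them was in 16.2% of the member windows and 9.69% of all. These matches are a description of the sequence and do not show that a factor was bound. The 9 promoters printed here belong to genes of several roles whose values recur below, from the lowest to the highest response to IL-15. Each runs 5′ to 3′ on the strand of its gene from 120 bases before to 30 bases after the start, so that its last bases lie in the first exon, and capitals mark both CHR forms and CCAAT on either strand (TTCAAA is the reverse of the usual core and ATTGG that of the CCAAT box).
Cdk1, chr10:69352883-69353032, minus strand: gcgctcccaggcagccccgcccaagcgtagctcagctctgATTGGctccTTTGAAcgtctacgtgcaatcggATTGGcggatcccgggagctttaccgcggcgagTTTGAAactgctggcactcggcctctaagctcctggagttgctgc
Ccnb2, chr9:70421525-70421674, minus strand: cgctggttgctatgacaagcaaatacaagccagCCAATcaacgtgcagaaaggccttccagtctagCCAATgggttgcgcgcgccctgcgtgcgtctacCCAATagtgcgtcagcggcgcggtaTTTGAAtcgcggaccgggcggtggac
Cdc20, chr4:118437314-118437463, minus strand: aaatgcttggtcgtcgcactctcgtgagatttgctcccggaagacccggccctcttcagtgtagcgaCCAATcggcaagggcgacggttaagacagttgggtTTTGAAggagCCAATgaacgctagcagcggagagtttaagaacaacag
Cenpa, chr5:30666766-30666915, plus strand: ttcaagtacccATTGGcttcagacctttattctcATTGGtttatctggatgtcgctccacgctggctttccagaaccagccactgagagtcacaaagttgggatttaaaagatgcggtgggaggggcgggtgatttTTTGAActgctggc
Kif11, chr19:37376262-37376411, plus strand: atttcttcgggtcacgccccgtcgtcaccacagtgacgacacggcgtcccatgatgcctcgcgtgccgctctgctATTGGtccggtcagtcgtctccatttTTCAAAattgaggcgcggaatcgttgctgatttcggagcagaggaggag
Prc1, chr7:80294331-80294480, plus strand: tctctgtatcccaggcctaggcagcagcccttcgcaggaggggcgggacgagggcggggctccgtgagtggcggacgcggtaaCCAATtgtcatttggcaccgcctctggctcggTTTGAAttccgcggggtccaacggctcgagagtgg
Racgap1, chr15:99651627-99651776, minus strand: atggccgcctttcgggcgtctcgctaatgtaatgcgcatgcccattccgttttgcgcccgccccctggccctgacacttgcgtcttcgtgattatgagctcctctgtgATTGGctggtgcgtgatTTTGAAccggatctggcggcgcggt
Top2a, chr11:99024160-99024309, minus strand: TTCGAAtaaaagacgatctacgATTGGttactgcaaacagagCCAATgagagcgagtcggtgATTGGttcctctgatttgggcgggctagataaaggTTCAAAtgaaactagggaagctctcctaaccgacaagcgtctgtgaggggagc
Mki67, chr7:135716350-135716499, minus strand: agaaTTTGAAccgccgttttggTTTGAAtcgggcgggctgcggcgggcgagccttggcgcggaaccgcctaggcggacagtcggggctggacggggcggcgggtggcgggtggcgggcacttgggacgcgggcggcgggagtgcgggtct
Cdk1, Ccnb2, Cdc20, Kif11, Top2a, Prc1, Racgap1 and Cenpa each showed a CHR core and a CCAAT box in these 150 bases. Mki67 showed TTTGAA in 2 places and no CCAAT in this stretch. Its full window did hold CCAAT farther upstream, with first bases at −188, −166 and −141 from the start. Racgap1, which changed least with IL-15, and Top2a, whose IL-15 level was among the highest, both held these elements.

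In naive spleen and in the lung the 45 transcripts were rare, and with IL-15 they were abundant. Their summed level was 5321 ± 291 CPM in IL-15-treated KO spleen and 5397 ± 262 CPM in IL-15-treated WT spleen, 319 ± 7.76 CPM in KO lung and 372 ± 42.8 CPM in WT lung, and 383 ± 39.5 CPM in naive KO spleen and 409 ± 68.0 CPM in naive WT spleen (mean ± SD, n = 4 libraries each). The lowest IL-15 library held 4923 CPM and the highest of all other libraries 507 CPM. KO and WT libraries overlapped in naive spleen and with IL-15, while the 4 KO lungs (309.9 to 325.9 CPM) all lay below the 4 WT lungs (329.2 to 431.6 CPM). That gap in lung depended on abundant members. Without Racgap1, Cenpa, Mad2l1 and Top2a the lung sums overlapped, at 160.6 to 177.4 CPM in KO and 160 to 255.4 CPM in WT. The mitotic sum was 1.25 ± 0.122 times the sum of 41 S phase genes in IL-15-treated KO spleen and 1.29 ± 0.105 times in WT. It was 0.245 ± 0.0107 and 0.240 ± 0.0223 times in KO and WT lung, and 0.252 ± 0.0116 and 0.243 ± 0.0406 times in naive KO and WT spleen.

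Which genes made up the sum differed between the states. Racgap1 encodes a GTPase-activating protein of the central spindle and took 3.65% and 3.41% of the summed mean in IL-15-treated KO and WT spleen, but 22.1% and 21.5% in KO and WT lung and 22.2% and 27.2% in naive KO and WT spleen. Mki67, the source of the Ki-67 protein that coats mitotic chromosomes, took 12% in both IL-15 groups, 7.29% and 8.42% in KO and WT lung, and 1.27% and 0.537% in naive KO and WT spleen. Top2a, the topoisomerase that untangles sister chromatids, took 12.3% in both IL-15 groups, 7.74% and 7.31% in KO and WT lung, and 11.2% and 8.48% in naive KO and WT spleen. Per kilobase of exon, so that genes can be set beside each other, the order of levels began with Racgap1 in lung (9.96 CPM per kb in KO, 11.3 in WT) and in naive spleen (12.03 in KO, 15.7 in WT). With IL-15 it began with Top2a (72.8 CPM per kb in KO, 73.4 in WT), the cyclin gene Ccnb2 (70.7 and 73.2) and Mki67 (63.6 and 64.2). These 3 neighbours overlapped between libraries in both genotypes, whereas in naive spleen and lung every library of Racgap1 lay above every library of the next gene. Cdc25c, a phosphatase that activates CDK1, stood last in naive KO spleen (0.0362 CPM per kb) and in both IL-15 groups (2.36 in KO, 2.85 in WT). Across the 45 genes the order correlated between KO and WT at a Spearman rho of 0.911 in naive spleen, 0.991 with IL-15 and 0.949 in lung, as a description of genes that share libraries and length.

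**Figure D1:**
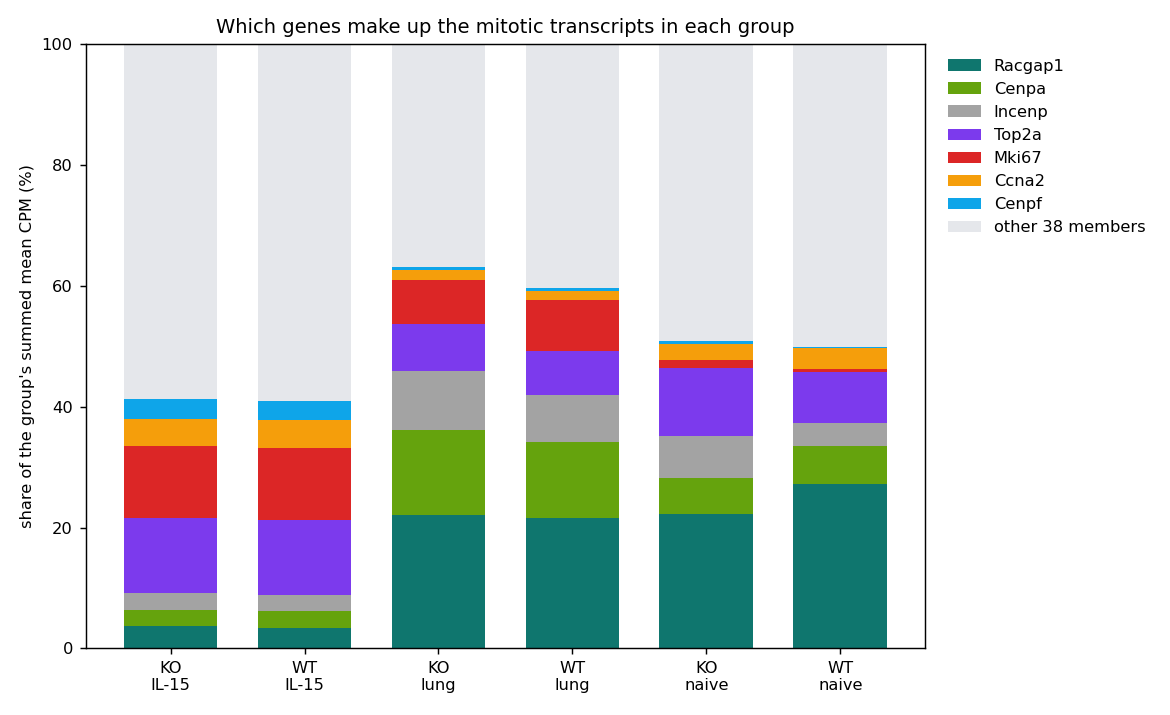
Stacked bars give the share of the summed mean CPM of the 45 mitotic genes taken by 7 named members and by the other 38, for the 6 groups (mean of 4 libraries each). Racgap1 took 3.41 to 3.65% with IL-15, but 21.5 to 22.1% in lung and 22.2 to 27.2% in naive spleen, and Mki67 took 12% with IL-15.

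IL-15 against naive spleen asked how far the whole machinery differed between these states in each genotype. IL-15 and any other handling of the treated cells cannot be told apart here. All 45 genes rose in KO cells and all 45 rose in WT cells, where 20.7% and 26.4% of all tested genes rose, and for each of the 45 the IL-15 libraries lay above all naive libraries of the same genotype (24.5% of all genes in KO, 27.3% in WT). The median change was 4.12 in KO and 4.05 in WT, against −0.00685 and −0.0117 over all genes tested. Every call in both genotypes held in each alternative run.

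The entry genes rose by a median of 4.44 in KO and 4.12 in WT. Cdk1 had 90.6, 104, 84.5 and 96.9 CPM in IL-15-treated KO spleen, against 5.201, 6.89, 7.29 and 4.13 CPM in naive KO spleen. In WT it had 109, 124, 89.0 and 85.2 CPM with IL-15, against 9.63, 8.77, 7.55 and 8.17 CPM in naive spleen. The lowest IL-15 library lay far above the highest naive library in each genotype, and the fitted change was 3.92 ± 0.182 in KO (adjusted p = 7.6e-12) and 3.50 ± 0.176 in WT (1.88e-11). Ccna2, the cyclin A2 gene, had 234, 258, 226 and 237 CPM with IL-15 in KO, against 9.34, 8.39, 16.0 and 7.78 CPM in naive KO spleen. The WT values of Ccna2 were 262, 218, 263 and 249 CPM with IL-15 and 11.9, 14.7, 10.5 and 19.1 CPM in naive spleen. Its change was 4.45 ± 0.225 in KO and 4.05 ± 0.219 in WT, with no overlap in either genotype. Ccnb1, the cyclin B1 gene, had 76.8, 91.2, 75.0 and 83.7 CPM with IL-15 in KO, against 1.45, 2.19, 4.09 and 5.197 CPM in naive KO spleen. The WT values were 90.5, 81.5, 82.0 and 84.7 CPM with IL-15, against 3.69, 3.90, 4.80 and 5.01 CPM in naive spleen. The naive KO libraries of Ccnb1 were spread more widely than the naive WT ones, and the change was 4.52 ± 0.253 in KO and 4.19 ± 0.245 in WT. Foxm1, the transcription factor that drives many G2 and M genes, rose by 4.48 ± 0.301 in KO and 4.81 ± 0.304 in WT.

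Checkpoint and anaphase genes rose as well, with medians of 4.33 and 4.12 in KO and 3.80 and 4.39 in WT. Mad2l1, whose product MAD2 inhibits the anaphase-promoting complex at unattached kinetochores, had 87.1, 104, 95.1 and 105 CPM with IL-15 in KO, against 20.6, 22.4, 16.3 and 18.3 CPM in naive KO spleen. WT spleens had 102, 95.6, 98.4 and 98.8 CPM with IL-15 and 24.5, 24.3, 24.2 and 27.7 CPM in naive spleen. Mad2l1 was among the members with the highest naive level and had 1 of the smaller changes, 2.27 ± 0.112 in KO and 1.89 ± 0.11 in WT. Cdc20, the activator that MAD2 holds back, had 108, 96.6, 90.8 and 103 CPM with IL-15 in KO, against 13.2, 4.58, 9.23 and 5.63 CPM in naive KO spleen. Its WT levels were 107, 119, 85.8 and 99.4 CPM with IL-15, against 6.10, 3.64, 4.89 and 11.1 CPM in naive spleen. Naive values of Cdc20 varied about as much within a genotype as between them, and it rose by 3.58 ± 0.314 in KO and 3.90 ± 0.315 in WT.

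The chromosomal passenger complex, in which the kinase Aurora B is held by INCENP, survivin and borealin, rose by a median of 4.08 in KO and 3.72 in WT. Aurkb had 94.5, 87.4, 82.0 and 85.9 CPM with IL-15 in KO, against 7.99, 3.81, 5.86 and 3.37 CPM in naive KO spleen. In the WT libraries it stood at 87.1, 94.0, 77.7 and 77.2 CPM with IL-15, against 3.73, 2.47, 5.68 and 5.90 CPM in naive spleen. The kinase gene rose by 4.03 ± 0.261 in KO and 4.15 ± 0.259 in WT. Incenp, the scaffold, had 143, 152, 163 and 144 CPM with IL-15 in KO, against 32.6, 26.1, 20.4 and 26.7 CPM in naive KO spleen. In WT it had 145, 139, 155 and 142 CPM with IL-15, against 19.9, 14.0, 9.998 and 16.5 CPM in naive spleen. The IL-15 levels of Incenp lay close together in the 8 libraries while its naive level was higher in KO, and its change was 2.44 ± 0.164 in KO and 3.18 ± 0.169 in WT.

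Kinetochore genes held both small and large changes. Cenpa, the histone H3 variant that marks centromeres, had 159, 136, 134 and 147 CPM with IL-15 in KO, against 29.6, 19.1, 25.6 and 17.9 CPM in naive KO spleen. The WT values were 153, 195, 125 and 135 CPM with IL-15, against 24.8, 21.0, 28.8 and 29.1 CPM in naive spleen. Cenpa rose by 2.58 ± 0.179 in KO and 2.47 ± 0.177 in WT, less than most members. Cenpf, a large protein of the outer kinetochore, rose by 6.49 ± 0.524 in KO and 7.83 ± 0.561 in WT. The kinesin gene Cenpe, which brings chromosomes to the metaphase plate, rose by 6.04 ± 0.378 in KO and 7.19 ± 0.407 in WT. In naive spleen Cenpf stood at 0.169 to 5.68 CPM in KO and 0.225 to 1.44 CPM in WT, and Cenpe at 0 to 2.23 CPM in KO and 0.300 to 0.816 CPM in WT. The size of these changes therefore rests on few reads: without naive KO replicate 1 the change of Cenpf was 7.30, and without naive WT replicate 2 it was 7.53.

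Spindle genes rose by a median of 4.22 in KO and 4.47 in WT. Kif11, the kinesin that pushes spindle poles apart, had 197, 231, 215 and 196 CPM with IL-15 in KO, against 12.04, 8.77, 10.9 and 11.4 CPM in naive KO spleen. WT spleens had 202, 155, 237 and 227 CPM with IL-15, against 9.63, 9.18, 10.1 and 13.4 CPM in naive spleen. Naive libraries of Kif11 lay close together in both genotypes, and it rose by 4.22 ± 0.164 in KO and 4.18 ± 0.162 in WT. Cytokinesis genes rose by a median of 3.92 in KO and 3.74 in WT. The smallest change was that of Racgap1, which had 187, 207, 189 and 194 CPM with IL-15 in KO, against 73.0, 91.8, 94.7 and 81.1 CPM in naive KO spleen. Its WT levels were 185, 171, 198 and 183 CPM with IL-15, against 78.2, 87.2, 138 and 141 CPM in naive spleen. The naive WT libraries of Racgap1 fell into a lower and a higher pair, none reaching the IL-15 libraries, and it rose by 1.12 ± 0.163 in KO (2.17-fold, adjusted p = 2.24e-05) and 0.64 ± 0.162 in WT (1.56-fold, adjusted p = 0.00272).

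Of the 2 chromosome genes, Top2a stood near the median of the members and Mki67 had the largest change of the 45 in both genotypes. Top2a had 651, 705, 660 and 610 CPM with IL-15 in KO, against 45.8, 48.3, 43.97 and 34.3 CPM in naive KO spleen. In the WT libraries it stood at 674, 539, 728 and 704 CPM with IL-15, against 30.3, 31.2, 28.4 and 48.7 CPM in naive spleen. It rose by 3.86 ± 0.171 in KO and 4.16 ± 0.173 in WT. Mki67 had 699, 512, 948 and 401 CPM with IL-15 in KO, against 7.13, 5.27, 5.31 and 1.79 CPM in naive KO spleen. In WT it had 651, 484, 828 and 621 CPM with IL-15, against 4.58, 0.262, 1.92 and 2.01 CPM in naive spleen. Naive replicate 2 of WT rested on 7 counts of Mki67. Mki67 rose by 7.01 ± 0.517 in KO (129-fold, adjusted p = 3.58e-09) and 8.12 ± 0.545 in WT (278-fold, adjusted p = 8.92e-10), and without naive WT replicate 1 or 2 the WT change was 8.75 or 7.75.

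**Figure D2:**
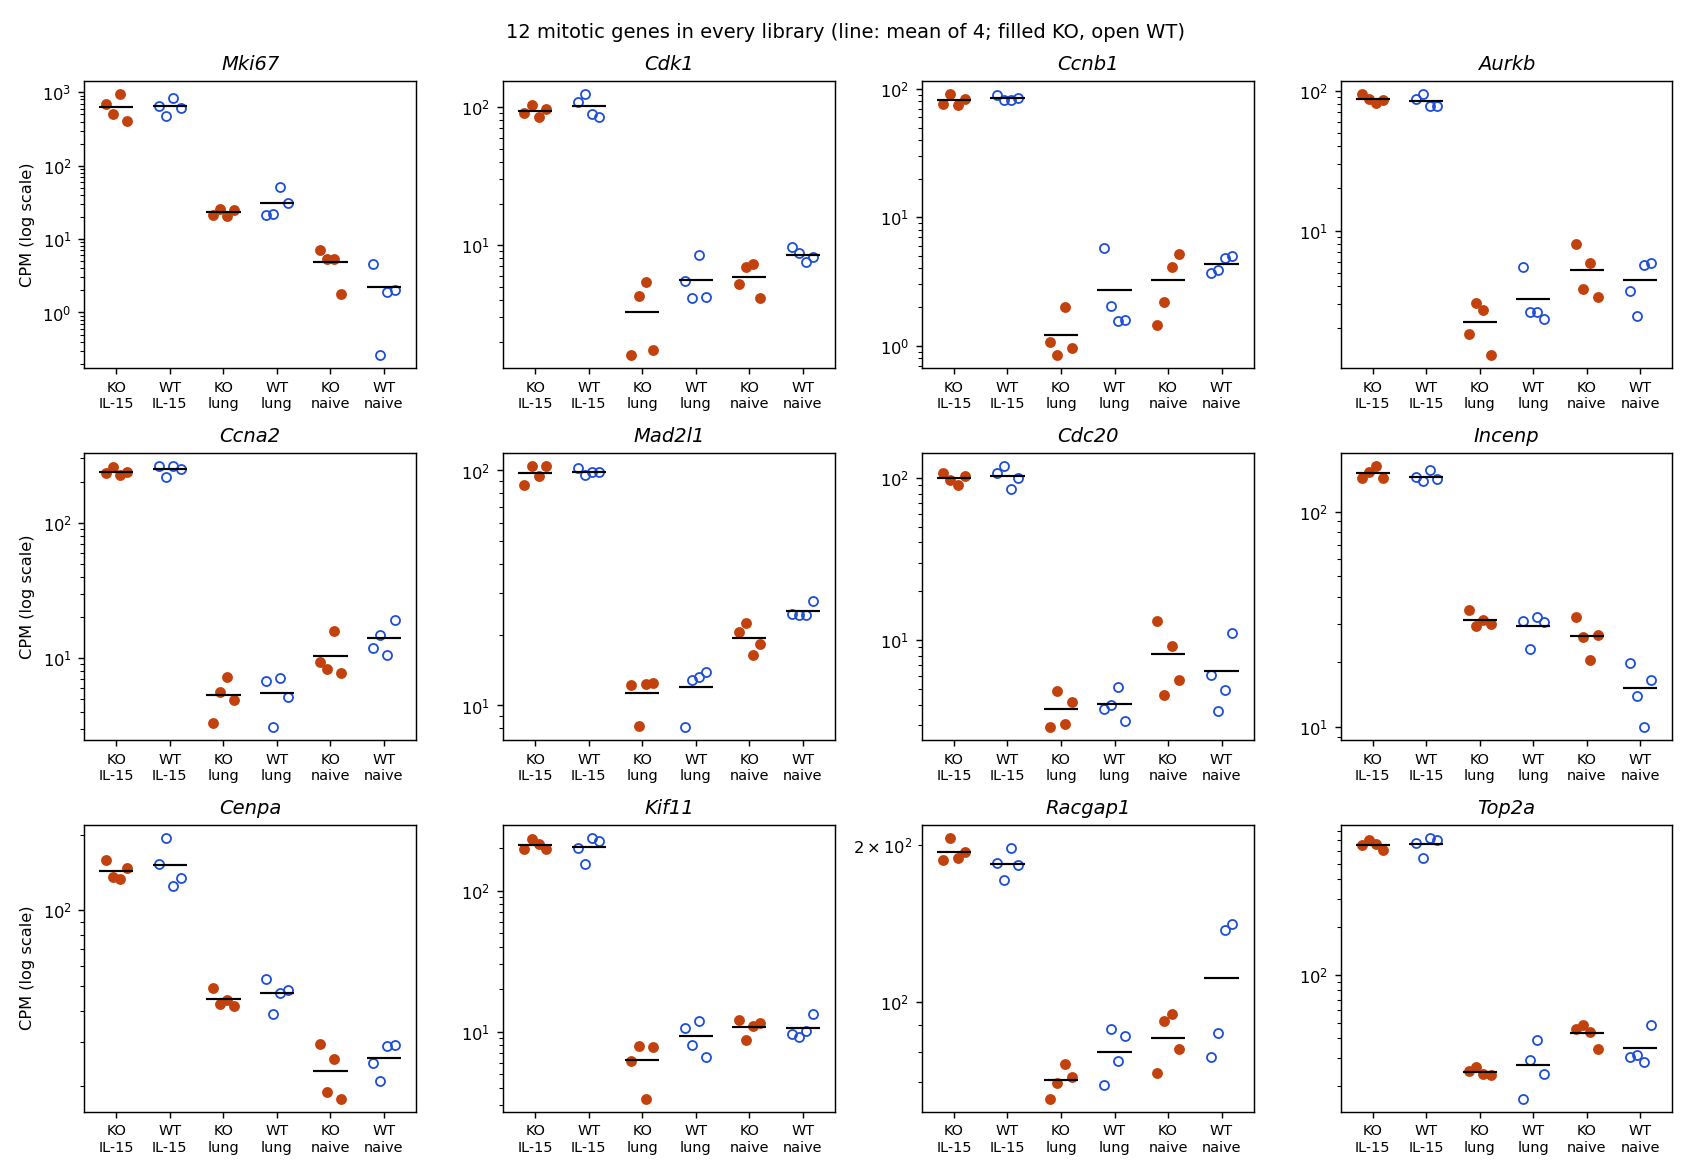
Points give the CPM (log axis, 1 range per gene) of 12 mitotic genes in each of the 24 libraries, filled for KO and open for WT, with a line at the mean of 4. For each gene the IL-15 libraries lie above all naive and lung libraries. Mki67 in lung (20.4 to 50.9 CPM) lies above naive spleen (0.262 to 7.13 CPM), while Mad2l1 in lung (8.11 to 13.8 CPM) lies below naive spleen (16.3 to 27.7 CPM).

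KO against WT asked whether loss of FcRγ changed these genes within a state. In naive spleen 4 of the 45 rose and 8 fell, where 11.1% of all tested genes rose and 9.22% fell. The share of members that rose was thus under the background, and the share that fell was above it in this fit. With each library left out, 3 to 7 rose and 3 to 10 fell. The median change of the 45 was −0.024, against −0.000699 over all genes, and 21 had an unadjusted p below 0.05. The share of all genes at that unadjusted cut was not counted, so the 21 cannot be set against a background. The libraries of KO and WT did not overlap for Espl1 and Incenp, which were higher in KO (10.4% of all genes), and for Cdk1, Mad2l1, Birc5 and Cdca3, which were lower (9.90%). In both directions the share of members without overlap was under that of all genes.

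Genes that rose in naive KO spleen came from 4 roles. Espl1 encodes separase, the protease that opens cohesin, and had 9.63, 3.08, 3.71 and 3.49 CPM in naive KO spleen, against 1.32, 2.25, 1.18 and 1.95 CPM in naive WT spleen. Replicate 1 of KO, the shallow library, was the highest, and Espl1 rose by 1.44 ± 0.319 (adjusted p = 0.00463). Kif15, a spindle kinesin that can stand in for Kif11, had 5.201, 4.58, 2.15 and 3.53 CPM in KO, against 2.87, 1.46, 1.00 and 0.923 CPM in WT. The ranges met at KO replicate 3 and WT replicate 1, and Kif15 rose by 1.25 ± 0.28 (adjusted p = 0.00506). Incenp rose by 0.78 ± 0.16 (adjusted p = 0.00291), with all KO libraries above all WT libraries. Kif20a, the kinesin MKLP2 that moves the passenger complex to the midzone, had 5.49, 5.23, 4.85 and 3.97 CPM in KO, against 2.91, 2.70, 1.70 and 4.58 CPM in WT. WT replicate 4 lay among the KO libraries, and Kif20a rose by 0.66 ± 0.207 (adjusted p = 0.0313).

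Among the genes that fell, Cdk1 changed by −0.55 ± 0.173 (adjusted p = 0.0308) and Ccnb2, the cyclin B2 gene, by −0.60 ± 0.202 (adjusted p = 0.0435). The kinase gene Bub1, which recruits checkpoint proteins to kinetochores, had 2.70, 1.39, 2.70 and 2.10 CPM in KO, against 1.51, 5.997, 5.76 and 5.34 CPM in WT. WT replicate 1 lay among the KO libraries, and the change was −1.13 ± 0.313 (adjusted p = 0.0172). Mad2l1 changed by −0.41 ± 0.109 (adjusted p = 0.0141) and Ube2c, the ubiquitin-conjugating enzyme of the anaphase-promoting complex, by −0.58 ± 0.193 (adjusted p = 0.0419). Birc5, the gene of survivin, had 4.82, 4.92, 6.96 and 3.73 CPM in KO, against 7.96, 8.99, 6.99 and 9.62 CPM in WT. The groups of Birc5 came close at KO replicate 3 and WT replicate 3 without overlap, and its change was −0.74 ± 0.206 (adjusted p = 0.0175). Spc25, a subunit of the NDC80 complex, had 1.06, 1.96, 6.07 and 2.38 CPM in KO, against 3.96, 7.80, 7.60 and 6.99 CPM in WT. Only KO replicate 3 reached into the WT range, and Spc25 changed by −1.16 ± 0.328 (adjusted p = 0.0187). Kif23, the kinesin partner of Racgap1 in the central spindle, changed by −0.41 ± 0.133 (adjusted p = 0.0347). Within the passenger complex Incenp rose while Birc5 fell. Nuf2, which lies 1.70 Mb from Fcer1g on chromosome 1 (chr1:169497934-169531464, GRCm38), changed by −0.19 ± 0.245 (adjusted p = 0.637).

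Many of these naive calls depended on the libraries. Incenp passed in all 18 alternatives. Espl1, Kif15 and Mad2l1 passed with each library left out, but Espl1 did not pass by voom (adjusted p = 0.199), Kif15 did not pass in a fit of only the groups compared (0.106), and Mad2l1 did not pass in that fit (0.104) or in a fit of all 24 libraries (0.0615). Without the shallow naive KO replicate 1, 4 members rose and 6 fell, but Cdk1, Ccnb2, Ube2c, Kif23 and Kif20a were no longer among them. Birc5 did not pass without KO replicate 4 (adjusted p = 0.0579). Bub1 was lost without WT replicate 2 or 3 or KO replicate 2 (0.0548 to 0.0593), Spc25 without these or KO replicate 4 (0.0511 to 0.0597), and Cdk1 without WT replicate 1 or 2 or KO replicate 1 or 4 (0.0647 to 0.0966). Kif23 was lost without WT replicate 2 or 4 or KO replicate 1, 2 or 3 (0.0557 to 0.104). Kif20a was lost in 6 of 8 such fits (0.0553 to 0.0933, not without WT replicate 4 or KO replicate 4), Ccnb2 in 6 (0.0619 to 0.195, not without WT replicate 1 or 3) and Ube2c in 6 (0.0634 to 0.128, not without WT replicate 1 or KO replicate 3). Without KO replicate 3 the change of Spc25 was −1.83, and without WT replicate 4 that of Ccnb2 was −0.26. The number that fell was 3 without WT replicate 2 or KO replicate 2, 4 without KO replicate 4 and 5 without WT replicate 3 or 4, and 7 rose without WT replicate 4. Marker genes also differed in naive spleen: the summed level of 11 NK cell genes was 15500 to 18200 CPM in KO and 19600 to 21500 CPM in WT. The sum of 12 myeloid genes was 721 to 934 CPM in KO and 500 to 714 CPM in WT, of which Itgax alone averaged 824 CPM in KO and 625 CPM in WT. Only 3 of the 12 averaged at least 1 CPM in each genotype, with Marco and Siglech at 0 in both, and the other 2 overlapped between KO and WT, with Lyz2 at 5.15 and 3.53 CPM and Cd68 at 4.12 and 4.92 CPM. The sum of 5 platelet genes was 32.9 to 52.9 CPM in KO and 16.3 to 33.8 CPM in WT, with 5 and 4 of the 5 averaging at least 1 CPM. T cell genes, 11 in number, summed to 301 to 355 CPM in KO and 240 to 314 CPM in WT. Of these, Cd3d stood at 23.8 to 43.4 and 13.2 to 21.6 CPM, while Trbc2 averaged 58 and 78.9 CPM. For 9 endothelial and fibroblast genes the sum was 96.3 to 124 CPM in KO and 53.3 to 75 CPM in WT. Pecam1 alone averaged 106 and 64.6 CPM there. Their part in the result was not tested.

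With IL-15 none of the 45 passed between KO and WT by edgeR, none had an unadjusted p below 0.05, and DESeq2 and voom called none, where 0.0824% of all genes rose and 0.0525% fell. The changes ran from −0.29 (Cdc25c) to 0.18 (Foxm1), with a median of −0.0275. For Cdk1 the change was −0.13 ± 0.156, for Top2a −0.02 ± 0.151 and for Mki67 −0.02 ± 0.386, and the SE of Mki67 was the larger of the last 2. In tumour-bearing lung none of the 44 tested members passed by edgeR, DESeq2 or voom, where 0.305% of all genes rose and 0.320% fell. Cdc25c was too low to be tested there. Birc5 (−0.74 ± 0.305, adjusted p = 0.382) and Bub1b, the gene of the checkpoint kinase BUBR1 (−0.70 ± 0.315, adjusted p = 0.422), had an unadjusted p below 0.05. The change was negative in 38 of 44 members, with a median of −0.356 against 0.00168 over all genes. Ccnb1 had 1.08, 0.845, 2.00 and 0.958 CPM in KO lung, against 5.76, 2.02, 1.55 and 1.58 CPM in WT lung. WT replicate 1, the shallow lung library, stood far above the other WT lungs, whose values overlapped those of KO, and the change was −1.11 ± 0.527 (adjusted p = 0.447). The largest positive changes were those of Plk1, the polo-like kinase (0.34 ± 0.392), and Prc1, which bundles the midzone microtubules (0.23 ± 0.282). Between the lungs, 9 melanocytic genes summed to 13.5 to 71.1 CPM in KO and 2.81 to 26.4 CPM in WT, with 6 and 5 of the 9 averaging at least 1 CPM. The sum of 10 lung epithelial genes was 34.2 to 418 CPM in KO and 22.5 to 90.2 CPM in WT, with 9 and 7 of the 10 averaging at least 1 CPM. The sum of the 12 myeloid genes was 582 to 1140 CPM in KO and 496 to 594 CPM in WT, with 10 and 9 of the 12 averaging at least 1 CPM, and Lyz2 stood at 132 to 572 CPM in KO and 46.2 to 115 CPM in WT without overlap. Their part in the result was not tested.

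**Figure D3:**
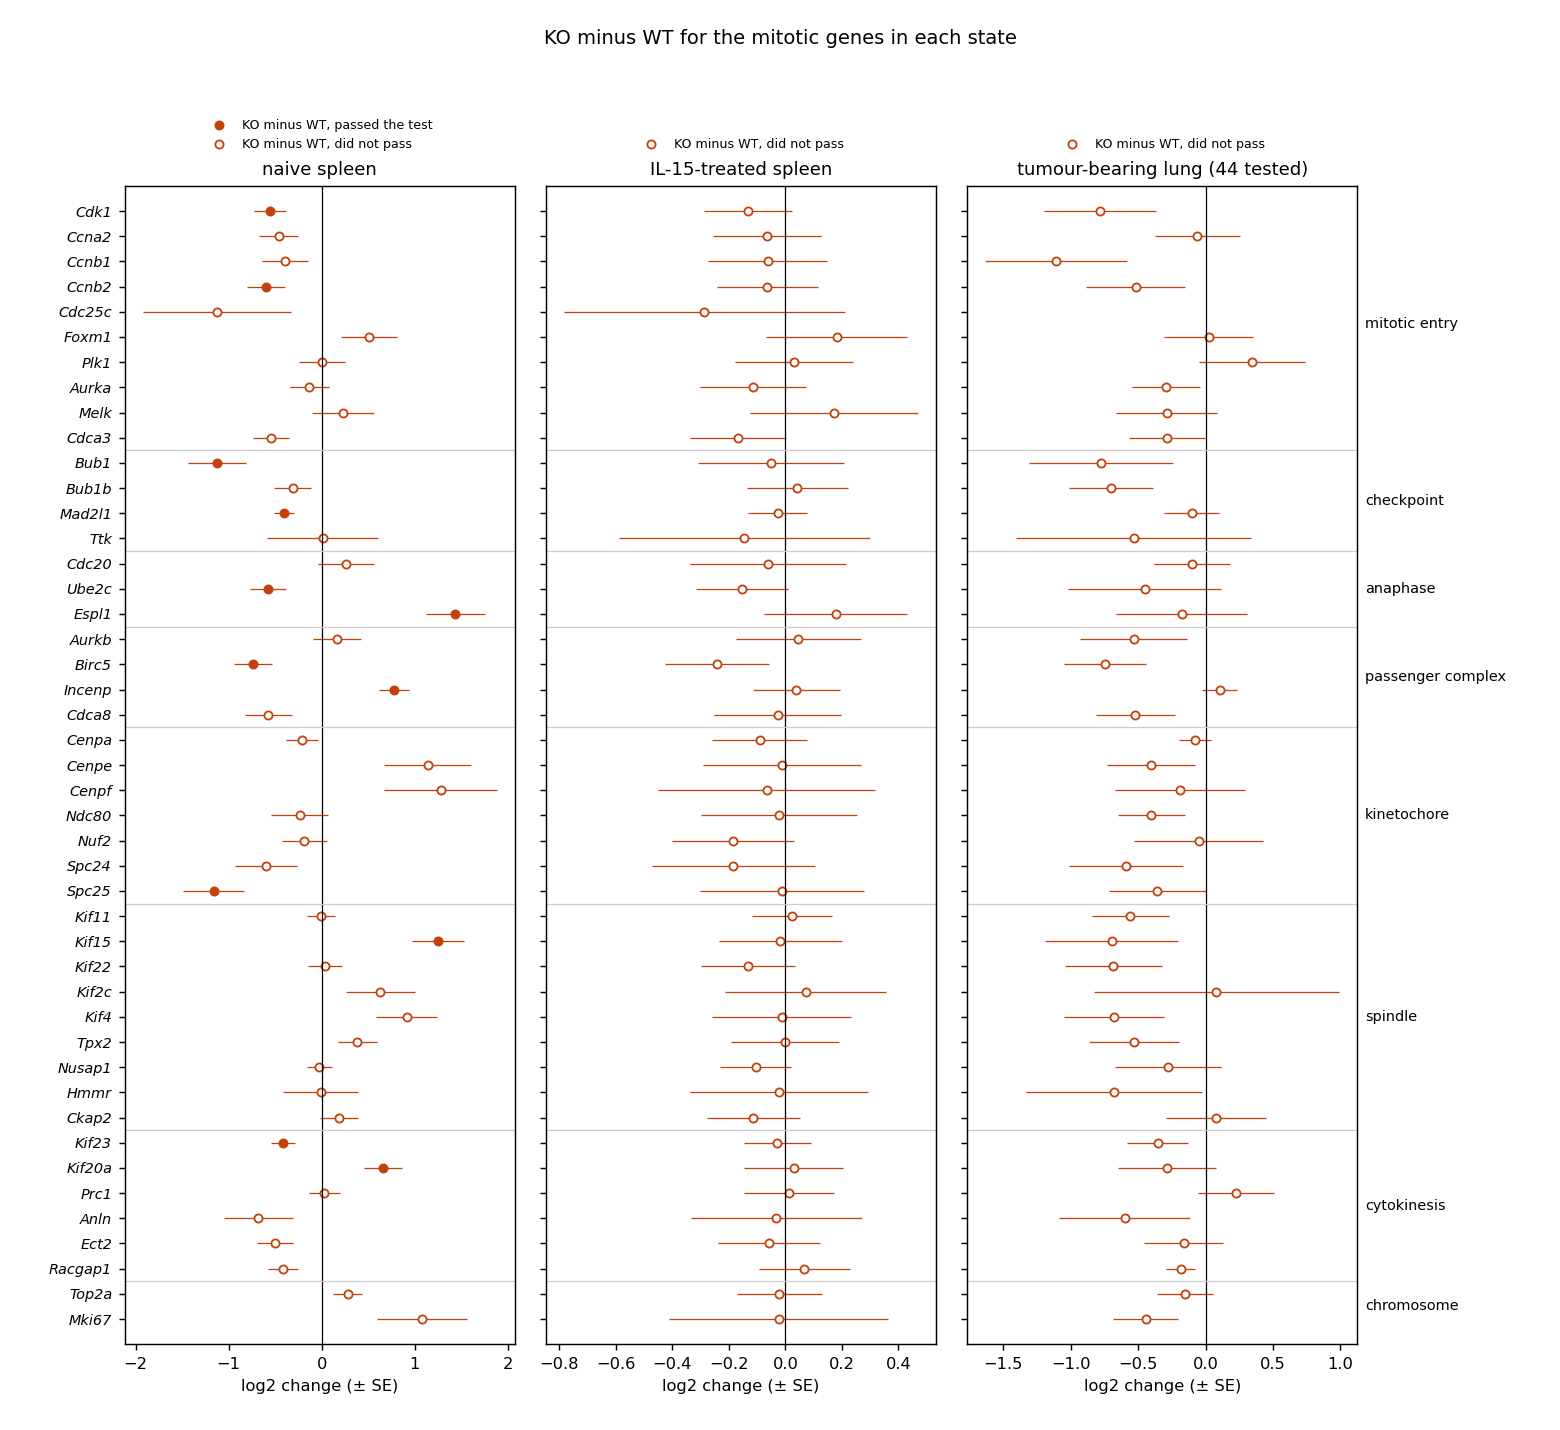
Points give the log2 change of each mitotic gene between KO and WT (± SE), with a panel each for naive spleen, spleen with IL-15 and lung, filled where the adjusted p was below 0.05, with 1 scale per panel. In naive spleen 4 genes rose and 8 fell. With IL-15 all points lie between −0.29 and 0.18, and in lung 38 of 44 are negative without passing.

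Lung against naive spleen asked how NK cells of the tumour-bearing lung stood against resting ones. In KO, 4 of 45 members rose and 23 fell, where 24.3% of all genes rose and 18.1% fell, and in WT 8 rose and 14 fell, where 29.2% rose and 20% fell. The share of members that rose was under the background in both genotypes, and the share that fell was above it. Without the 2 shallow libraries 4 rose and 22 fell in KO, and 8 rose and 20 fell in WT. The KO and WT comparisons share no library, and 4 members rose and 10 fell in both. Lung and naive libraries did not overlap for 2 members that were higher and 14 that were lower in KO (23.8% and 15.4% of all genes), and for 4 and 7 in WT (23.6% and 16.7%). The median change was −0.767 in KO and −0.534 in WT, against 0.0491 and 0.078 over all genes. Organ and tumour cannot be told apart in this comparison, which shares its naive libraries with IL-15 against naive spleen. The melanocytic sums above compare with at most 3.88 CPM in spleen, where Mlana, Tyr, Tyrp1, Dct and Slc45a2 were at 0 in every group, while none of the 9 genes was at 0 in all libraries of a lung group. Of 9 neutrophil genes, 3 averaged at least 1 CPM in each lung group, and they summed to 10.3 to 33.1 CPM in KO lung and 3.29 to 21.3 CPM in WT lung, against at most 1.31 CPM in spleen. Lyz2 averaged 313 and 94.9 CPM in KO and WT lung, against 5.15 and 3.53 CPM in naive KO and WT spleen. In that order Itgax averaged 470 and 434 CPM against 824 and 625 CPM. Epithelial Scgb1a1 averaged 139 and 31.3 CPM against 0 and 0.0187 CPM, and Epcam 2.34 and 1.85 against 3.45 and 2.26 CPM. Endothelial Cldn5 averaged 10.2 and 23.4 CPM against 0 in both, and Pecam1 79.7 and 69.3 CPM against 106 and 64.6 CPM. Their part in the lung results was not tested.

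Mki67 moved apart from the rest. It had 21.5, 25.7, 20.4 and 25.2 CPM in KO lung, against 7.13, 5.27, 5.31 and 1.79 CPM in naive KO spleen. The WT values were 21.4, 22.3, 50.9 and 31.0 CPM in lung, against 4.58, 0.262, 1.92 and 2.01 CPM in naive spleen. All lung libraries lay above all naive ones, with changes of 2.30 ± 0.422 in KO (4.93-fold, adjusted p = 0.000102) and 3.85 ± 0.449 in WT (14.4-fold, adjusted p = 1.3e-07). The WT change was 4.5 without naive WT replicate 1 and 3.48 without replicate 2. Cenpa also rose in both genotypes, with 49.2, 42.5, 44.03 and 41.6 CPM in KO lung and 53.6, 38.6, 47.1 and 48.2 CPM in WT lung, all above the naive values of the same genotype. Its change was 0.96 ± 0.156 in KO (adjusted p = 2.64e-05) and 0.85 ± 0.155 in WT (adjusted p = 6.5e-05). Foxm1 averaged 8.43 ± 1.23 CPM in KO lung and 4.72 ± 2.48 CPM in naive KO spleen, and 8.14 ± 4.33 CPM in WT lung and 3.06 ± 1.19 CPM in naive WT spleen (SD, n = 4 each). It rose by 0.90 ± 0.324 in KO (adjusted p = 0.0267) and 1.45 ± 0.327 in WT (adjusted p = 0.000687). The KO call of Foxm1 was lost without naive KO replicate 2, 3 or 4 or KO lung replicate 1 or 2 (adjusted p 0.0531 to 0.115). Cenpe had 3.15, 2.82, 1.91 and 2.33 CPM in KO lung, against 0, 1.39, 2.23 and 0.754 CPM in naive KO spleen. The WT levels were 3.41, 3.20, 4.75 and 2.19 CPM in lung, against 0.816, 0.300, 0.611 and 0.461 CPM in naive spleen. The KO ranges overlapped and the WT ranges did not, and the change was 1.07 ± 0.371 in KO (adjusted p = 0.022) and 2.63 ± 0.403 in WT (adjusted p = 6.96e-06). Without naive KO replicate 4 or KO lung replicate 1, Cenpe did not pass in KO (0.0794 and 0.0649), and only 2 of the 45 then rose.

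Incenp, Cenpf, Kif15 and Kif4 passed upward in WT only, which is not a test of a difference between the genotypes. Incenp had 31.1, 23.1, 32.4 and 30.6 CPM in WT lung, against 19.9, 14.0, 9.998 and 16.5 CPM in naive WT spleen, without overlap, and rose by 0.95 ± 0.157 (adjusted p = 1.85e-05). In KO its lung values were 35.0, 29.3, 31.5 and 29.99 CPM, against 32.6, 26.1, 20.4 and 26.7 CPM in naive spleen, and the change was 0.25 ± 0.155 (adjusted p = 0.194). The lung ranges of Incenp overlapped between the genotypes and the naive ranges did not. Kif15 changed by −0.63 ± 0.377 in KO (adjusted p = 0.189) and 1.32 ± 0.392 in WT (adjusted p = 0.00724, and 0.071 without WT lung replicate 3). Kif4, a chromokinesin that works with PRC1 at the spindle midzone, changed by −0.60 ± 0.318 in KO and 1.06 ± 0.32 in WT (adjusted p = 0.00781). The WT change of Kif4 was 1.76 without naive WT replicate 4, and Kif4 did not pass in a fit of only the groups compared (0.133). Cenpf changed by −0.04 ± 0.53 in KO and 1.54 ± 0.562 in WT (adjusted p = 0.0255), a WT call lost without naive WT replicate 1 or 2 or WT lung replicate 3 or 4 (0.0626 to 0.101).

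In KO lung 14 of the 23 genes that fell belonged to entry, anaphase and the spindle, and in WT lung 6 of 14. These roles hold 10, 3 and 9 of the 45 members. Ccna2 had 3.31, 5.68, 7.30 and 4.96 CPM in KO lung, against 9.34, 8.39, 16.0 and 7.78 CPM in naive KO spleen. Its WT levels were 6.82, 3.12, 7.21 and 5.15 CPM in lung, against 11.9, 14.7, 10.5 and 19.1 CPM in naive spleen. The groups did not overlap in either genotype, with changes of −0.97 ± 0.247 in KO (adjusted p = 0.0026) and −1.36 ± 0.248 in WT (adjusted p = 6.54e-05). Mad2l1 had 12.2, 8.17, 12.3 and 12.4 CPM in KO lung and 8.11, 12.8, 13.3 and 13.8 CPM in WT lung, below every naive library. Its change was −0.78 ± 0.145 in KO (adjusted p = 0.000118) and −1.05 ± 0.145 in WT (adjusted p = 1.7e-06). Nusap1, which binds spindle microtubules near chromatin, had 2.67, 3.74, 2.78 and 1.58 CPM in KO lung, against 9.05, 9.43, 8.01 and 6.67 CPM in naive KO spleen. In the WT libraries it stood at 1.88, 3.66, 5.19 and 2.19 CPM in lung, against 6.91, 9.11, 6.90 and 9.92 CPM in naive spleen. Nusap1 did not overlap in either genotype and had the largest fall of the 45 in KO, −1.61 ± 0.228 (adjusted p = 3.86e-06), and −1.29 ± 0.225 in WT (adjusted p = 3.96e-05). Ect2, the exchange factor that activates RhoA at the cleavage furrow, fell by 1.03 on the log2 scale in KO and by 1.35 in WT. Ccnb1, Ccnb2, Ube2c, Birc5, Nuf2 and Prc1 also fell in both genotypes. Without naive WT replicate 4 the WT change of Ccnb2 was −0.60, and without WT lung replicate 1 that of Ccnb1 was −1.34. The KO change of Hmmr was −0.68 without naive KO replicate 1. Aurkb, of the passenger complex, changed by −1.20 ± 0.298 in KO (adjusted p = 0.00207). In KO all 3 anaphase genes and 6 of 9 spindle genes fell. Among them Espl1 stood at −1.47 ± 0.364 (adjusted p = 0.00201) and Tpx2, a factor that nucleates spindle microtubules, at −1.31 ± 0.254 (adjusted p = 0.000193). In WT 1 of 3 anaphase genes and 1 of 9 spindle genes fell. Such counts are not a test of a difference between the genotypes, and none of the 45 passed the lung interaction by edgeR. With libraries left out in turn, the KO call of Hmmr, the hyaluronan-mediated motility receptor that also binds spindle microtubules, was lost without naive replicate 1 or 2 or any lung replicate (adjusted p 0.0587 to 0.261). Kif2c, a microtubule-depolymerizing kinesin, was lost in KO without naive replicate 2 or 3 or lung replicate 1, 3 or 4 (0.0719 to 0.158). Cdk1 was lost in KO without naive replicate 2 or 3 or lung replicate 1 or 4 (0.0542 to 0.0793), and Ube2c in KO without naive replicate 1 or 3 or lung replicate 1 or 4 (0.0591 to 0.18) and in WT without lung replicate 2 or 4 (0.0503 and 0.0515). In WT, Ccnb1 was lost without naive replicate 3 or 4 or lung replicate 2, 3 or 4 (0.0662 to 0.132), Bub1 without naive replicate 2, 3 or 4 or lung replicate 2 or 3 (0.0722 to 0.145), Spc25 without naive replicate 2, 3 or 4 or lung replicate 1 or 2 (0.0664 to 0.0937) and Racgap1 without naive replicate 3 or 4 (0.0553 and 0.0621). In KO, Bub1b was lost without lung replicate 1 (0.0529) and Prc1 without naive replicate 2 (0.052).

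Against IL-15-treated spleen, all 45 members were lower in lung in KO and all 45 in WT, where 20.5% and 20.6% of all genes were lower. The median change was −4.95 in KO and −4.59 in WT, and lung and IL-15 libraries overlapped for no member (24.8% of all genes were lower without overlap in KO, 18.7% in WT). Cenpf had the largest change (−6.59 ± 0.495 in KO and −6.38 ± 0.492 in WT) and Racgap1 the smallest (−1.46 ± 0.146 in KO and −1.20 ± 0.146 in WT). Mki67 changed by −4.78 ± 0.432 in KO and −4.35 ± 0.423 in WT. This comparison shares its lung libraries with lung against naive spleen and its IL-15 libraries with IL-15 against naive spleen.

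**Figure D4:**
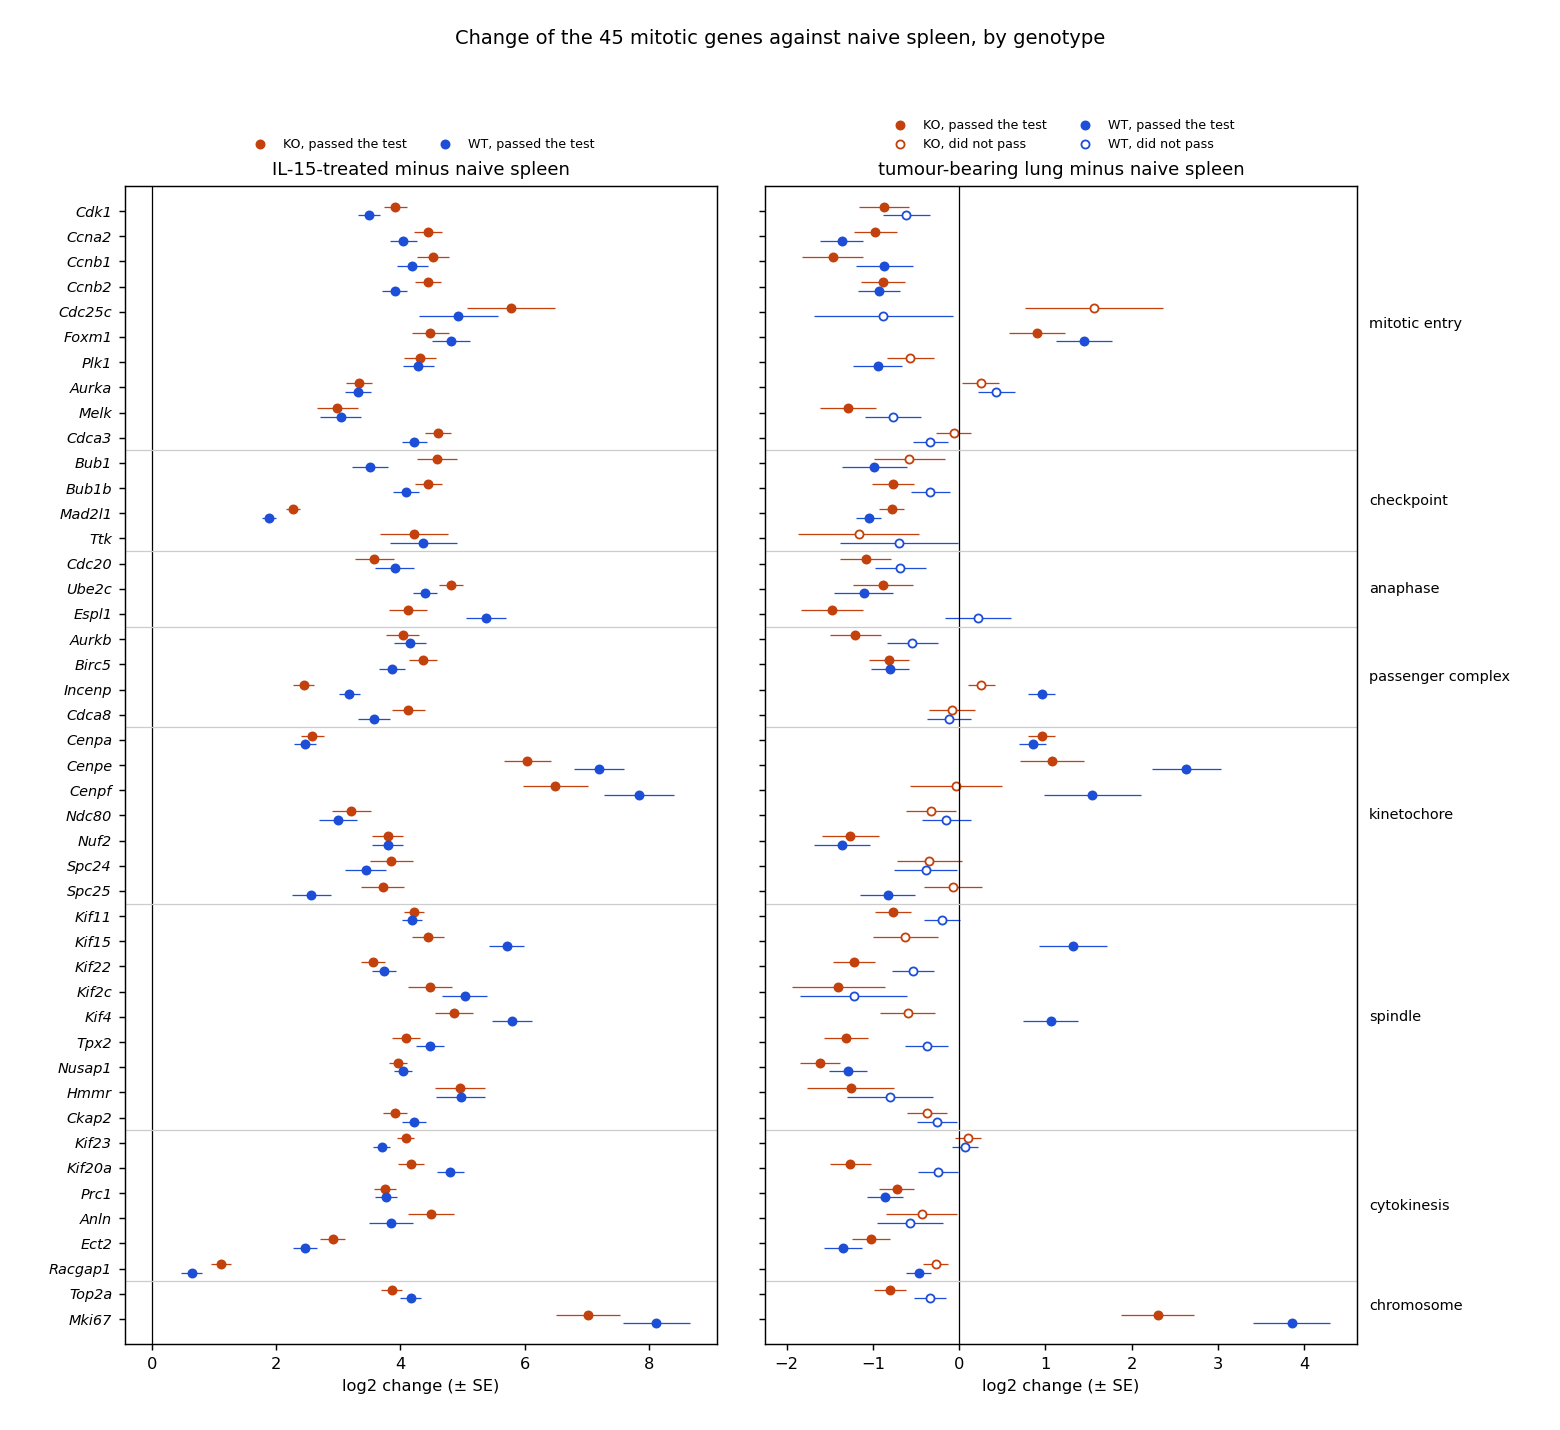
Points give the log2 change (± SE) of each mitotic gene against naive spleen of the same genotype, KO above WT in each row, for IL-15-treated spleen and for tumour-bearing lung, filled where the adjusted p was below 0.05, with 1 scale per panel. With IL-15 all 45 genes rose in each genotype. In lung most points lie below 0, and Mki67 stands at 2.30 in KO and 3.85 in WT.

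The difference of the KO effect between states was tested as an interaction. None of the 45 passed by edgeR between IL-15 and naive spleen, where 0.472% of all genes passed upward and 1.06% downward, and 10 members had an unadjusted p below 0.05. None passed between lung and naive spleen, where 0.168% and 0.981% of all genes passed, and 9 had an unadjusted p below 0.05. For neither interaction was the share of all genes at the unadjusted cut counted, so these counts have no background. The members nearest the threshold were Kif15 (−1.27 ± 0.355, adjusted p = 0.0778) and Incenp (−0.74 ± 0.222, adjusted p = 0.0998) for IL-15. For lung they were Kif4 (−1.66 ± 0.451, adjusted p = 0.0671), Kif15 (−1.94 ± 0.544, adjusted p = 0.0756) and Espl1 (−1.70 ± 0.528, adjusted p = 0.113). DESeq2 called Espl1, Incenp and Kif15 for IL-15, and Espl1, Incenp, Cenpe, Kif15, Kif4 and Kif20a for lung, all downward. A single library could decide the edgeR call: without naive WT replicate 1, Kif15, Incenp and Bub1 passed for IL-15 (adjusted p 0.00398, 0.0318 and 0.0066) and Kif15, Incenp and Mki67 for lung (0.0163, 0.0268 and 0.0456). Without naive WT replicate 4, Kif4 and Kif20a passed for both (adjusted p for Kif4 0.0107 and 0.00288). Without naive KO replicate 3, Kif15 and Spc25 passed for IL-15 (0.0299 and 0.00718) and Kif15 for lung (0.0445). Kif15 also passed for lung without WT lung replicate 2 (0.0212) or KO lung replicate 1 (0.0445), and Kif4 without WT lung replicate 1 (0.0309).

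Exon length, which ran from 1531 to 15433 bases among the members, moved with some of these changes. Over the 45 genes the Spearman rho of length with the change was 0.341 for KO against WT in naive spleen, against 0.278 over 13151 genes. For lung against naive spleen it was 0.223 in KO and 0.410 in WT, against 0.0866 and 0.164 over 14063 genes. With IL-15 against naive spleen it was 0.105 in KO and 0.190 in WT, against 0.112 and 0.216 over 13151 genes. For KO against WT it was 0.232 with IL-15, against 0.111 over all genes. In lung it was 0.0125 over 44 members, against 0.201 over 12962 genes. In WT lung against naive spleen the 23 longer members had a median change of −0.201 and the 22 shorter ones −0.723. These medians were −0.596 and −0.881 in KO lung against naive spleen, and −0.011 and −0.078 for KO against WT in naive spleen. With a correction for length and GC content, 4 members rose and 7 fell in naive KO spleen, where Ccnb2 (adjusted p = 0.362), Bub1 (0.0671) and Spc25 (0.056) did not pass and Espl1 stood at 0.92. With it 4 rose and 22 fell in KO lung, where Ccnb2 (0.078) and Hmmr did not pass. In WT lung 8 rose and 12 fell, and Ccnb1 (0.187), Ccnb2 (0.159), Bub1 (0.306), Spc25 (0.434) and Cenpf (0.091, at a change of 1.09) did not pass. What sets this trend was not tested.

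**Figure D5:**
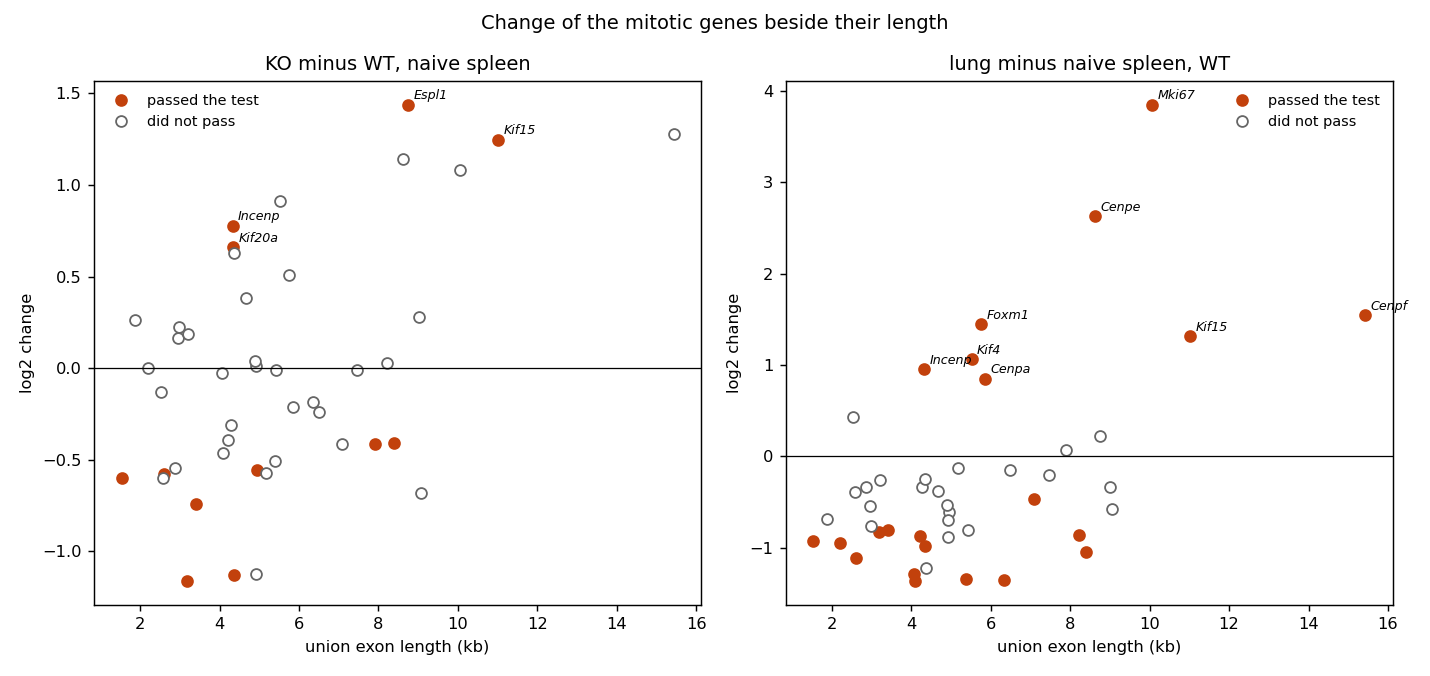
Points give each mitotic gene's log2 change against its union exon length in kilobases, for KO minus WT in naive spleen and for lung minus naive spleen in WT, filled where the adjusted p was below 0.05. Among the genes that passed upward in WT lung, Mki67, Cenpe, Cenpf and Kif15 are among the longest members.

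Other genes of division, taken from lists of the same machinery, gave a frame for the 45. Over all tested genes, 20.7% rose with IL-15 in KO and 26.4% in WT. With IL-15, other kinetochore genes rose in 27 of 31 in KO and 26 of 31 in WT, other spindle and cytokinesis genes in 24 of 25 in each, other control genes in 16 of 16 in each, and S phase genes in 39 of 41 in KO and 38 of 41 in WT. Other genes of chromosome structure rose in 15 of 20 and fell in 2 in each genotype. Subunits of the anaphase-promoting complex gave other counts: 3 of 14 rose and 3 fell in KO, and 3 rose and 4 fell in WT, with medians of −0.0433 and −0.0773. Among 23 regulators of the cycle genes 16 rose and 2 fell in KO, and 11 rose and 3 fell in WT, with E2f8, an atypical E2F repressor, at 5.30 ± 0.201 in KO, and E2f1, an activator of S phase genes, at 3.13 ± 0.216. Of 17 genes of G1 and arrest 5 rose and 7 fell in KO, and 6 rose and 8 fell in WT.

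In naive spleen, KO against WT, 11.1% of all tested genes rose and 9.22% fell. S phase genes rose in 4 of 41 and fell in 11, with a median of −0.211. The smallest p in that list belonged to genes that rose. Clspn, the adaptor of the replication checkpoint, stood at 1.66 ± 0.199 (adjusted p = 4.56e-05), and Pole, the catalytic subunit of a replicative polymerase, at 1.33 ± 0.246 (adjusted p = 0.0014). Cks2, a small subunit that binds CDK1, changed by −1.14 ± 0.174 (adjusted p = 0.000341), the only call of 16 control genes. Lin9, a MuvB subunit, changed by −1.07 ± 0.25 (adjusted p = 0.00655), 1 of 4 regulators that fell while 2 rose. Of the rest, 1 of 31 kinetochore genes rose and 5 fell, 1 of 20 chromosome genes rose and 1 fell, 2 of 25 spindle genes rose and 2 fell, no subunit of the anaphase-promoting complex passed, and 5 of 17 genes of G1 and arrest fell. None of the 8 lists held a call between KO and WT with IL-15 or in lung by edgeR. In lung against naive spleen, S phase genes rose in 4 and fell in 11 of 41 in KO, and rose in 7 and fell in 9 in WT. Over all genes there, 24.3% rose and 18.1% fell in KO, and 29.2% rose and 20% fell in WT. Subunits of the anaphase-promoting complex rose in 0 and fell in 5 of 14 in KO, and rose in 3 and fell in 8 in WT. Genes of G1 and arrest rose in 6 and fell in 5 of 18 in KO, and rose in 8 and fell in 5 in WT, with the antiproliferative genes Btg1 at 0.98 ± 0.0945 in KO and 0.93 ± 0.0944 in WT and Btg2 at 0.92 ± 0.0846 and 0.89 ± 0.0845. Cdkn1a, which encodes the CDK inhibitor p21, rose by 2.64 ± 0.293 in KO (adjusted p = 1.07e-07) and 2.79 ± 0.288 in WT (adjusted p = 1.88e-08).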

How the data were processed

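Per the labels' protocols, RNA came from the RNeasy Plus Micro kit (Qiagen), and poly(A) libraries from NEBNext Ultra II Directional. The authors deposited 1 table of RSEM expected counts for 38215 genes in 24 libraries, of which 5.47% of values were not whole. The submitters' processing notes name cutadapt 1.9, STAR 2.5.2a, RSEM 1.2.30 and GRCm38, with no annotation release or strand setting. Of the members, 16 overlap another gene, 12 of them on the other strand, where reads may be shared.

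Expected counts were rounded to whole numbers, filtered with filterByExpr and scaled by the trimmed mean of M values in edgeR 4.0.16 (R 4.3.3). Quasi-likelihood F tests with Benjamini-Hochberg adjustment were fitted over all genes, with the 16 spleen libraries together for spleen, the 8 lung libraries for KO against WT in lung, and all 24 for lung against spleen and its interaction. The SE was taken as the size of the log2 change over the square root of F. CPM used scaled totals of all 24 libraries, and exon lengths came from GENCODE on GRCm38. Alternatives were DESeq2 1.42.0, voom with library weights (limma 3.58.1), other size factors, filters and sample sets, a length and GC correction, a replicate block, and each library left out. The scripts were tested on simulated data. Members shown in every library were Mki67, Cdk1, Ccnb1, Aurkb and the one with the highest mean in each role. Also marked for naming were the 3 largest and 3 smallest changes of a comparison and those called against the direction of most. Some of these were shown in full, some by their change only, and some were left out. Other members were named for their role, with Birc5 shown in full after its values were seen, and up to 3 genes per other list by smallest p. The members and lists were chosen with earlier results of these data known. Whether libraries of the same number came from the same animal is not stated, and the main fits did not pair them. Correlations of deviations of libraries with the same replicate number ran from -0.19 to 0.247, which cannot decide this. Numbers in the library names recur between naive and IL-15-treated spleen. A fit blocked on them was run for IL-15 against naive spleen, and all 45 calls held in each genotype.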

Additional observations from a re-analysis of the deposited data

Results flagged for a closer look

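Of 84 sets of 4 libraries, made of 12 members, the sum of all 45 and its ratio to the S phase sum in 6 groups, 5 held a library farther from the others than Dixon's 95% critical value allows, a rate near the 1 in 20 that chance gives. In WT lung, replicate 1, a shallow library, was the highest for Ccnb1 (5.757 CPM against 1.545 to 2.021 CPM in the others, a gap of 0.887 of the range) and for Aurkb (5.522 CPM against 2.345 to 2.614 CPM, 0.915). In KO lung, replicate 2 was the lowest for Mad2l1 (8.17 CPM against 12.17 to 12.41 CPM, 0.943). In naive WT spleen, replicate 4 was the highest for Mad2l1 (27.72 CPM against 24.19 to 24.51 CPM, 0.909) and for Top2a (48.68 CPM against 28.38 to 31.22 CPM, 0.86).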

How the results depend on the processing

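All 45 calls of each comparison with IL-15-treated spleen held in every alternative run, and no result changed direction. For KO against WT in naive spleen, 1 of the 4 genes that rose and 0 of the 8 that fell passed in every alternative. There voom called 2 higher and 2 lower, a fit of only the groups compared 2 higher and 0 lower, and a fit of all 24 libraries 3 lower. Leaving out each library gave 3 to 7 higher and 3 to 10 lower. For lung against naive spleen, only the groups compared gave 2 higher and 14 lower in KO and 5 higher and 9 lower in WT, and leaving out each library gave 2 to 4 higher and 19 to 24 lower in KO and 6 to 9 higher and 10 to 18 lower in WT. The interaction for IL-15 had 3 lower by DESeq2 and 1 higher and 2 lower by voom, and 0 to 1 higher and 0 to 2 lower with each library left out. The interaction for lung had 6 lower by DESeq2, 2 lower without both shallow libraries, and 0 to 3 lower with each library left out. The cause was not tested, beyond the fewer libraries of the smaller fits. On unscaled totals the summed CPM was 5871 in KO with IL-15, 5889 in WT with IL-15 and 297.1 in KO lung.

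With the replicate block, 4 members rose and 7 fell in KO against WT naive spleen and 22 fell in KO lung against naive spleen. Ube2c in naive spleen (adjusted p = 0.0572) and Kif2c in KO lung (0.0517) were the calls lost. In WT lung against naive spleen 14 still fell under the block, with Bub1 lost (0.0521) and Cdk1 gained (0.041). The other counts did not change, and whether the numbers pair the libraries is not known. A fit of only the groups compared was not run for KO against WT in lung and for the IL-15 interaction, where it is the fit already given. Depth limits Cdc25c, Cenpe, Cenpf and Ttk, whose naive libraries held medians of 5.5, 16.5, 29.0 and 30.5 counts.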
